A study of Mus musculus with 192 samples.

Results

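The complement components and receptors described here are 8 genes, C3, Cfb, C1qa, C1qb, C1qc, C3ar1, C5ar1 and Cfp. They were taken by symbol from a table of 23481 gene rows. All 8 were present, and all 8 were among the 4720 genes that passed the filter on low counts. They were chosen by name and not by a threshold on their values.

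The study measured RNA in mouse bone marrow-derived dendritic cells, which present antigen to T cells and were derived here from marrow kept in the cytokine GM-CSF (15 ng/mL). The marrow came from female C57BL/6J mice of 6 to 8 weeks, and every group shared this source, culture and a stimulation of 6 h. The libraries form 64 groups of 3. They are an unstimulated group labelled Ctrl, 7 groups given 1 ligand of a pattern recognition receptor, 21 groups given a pair and 35 given a triplet. The ligands are PAM, LPS (lipopolysaccharide), HMW, Zymosan depleted (written Zymosan from here on), SeV, 3',3'-cGAMP (a cyclic dinucleotide, written cGAMP from here on) and CpGB. The labels give no doses, and nothing in them says whether the 3 libraries of a group came from separate animals or cultures, so the p-values measure the spread between these libraries, which may be technical.

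Total counts of unique molecular identifiers (UMIs, tags that mark single cDNA molecules) ran from 46564 to 610234 per library, with a median of 171616.5. The Ctrl libraries held 73431 ± 14389 (SD, n = 3), and the median library held 2.34 times as many, so Ctrl is the less precise side of each difference from it. Of 8 dendritic cell markers, Flt3 was at 0 in 124 libraries, Dpp4 in 122 and Zbtb46 in 121, while the other 5 were at 0 in no library. Over the group means these were Itgax (183 to 505 CPM, UMI counts scaled to a common library total), Ccr7 (180 to 756), Cd74 (697 to 1170), Ccl22 (129 to 1480) and the major histocompatibility gene H2-Aa (1956 to 2743), and the macrophage receptor gene Csf1r was at 399 to 1580 CPM. Markers of T and NK cells summed to at most 13.4 CPM in any library and markers of B cells to at most 34.6 CPM. The 7 neutrophil markers found of 8 listed summed to 361 to 1045 CPM, with 476 to 702 CPM in Ctrl, 677 to 864 with PAM and 780 to 988 with LPS, and their part in the values below was not tested.

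Complement is a set of plasma and cell-surface proteins that mark microbes and dying cells for uptake, call in leukocytes and can puncture membranes. The classical pathway starts when C1q, a bundle of A, B and C chains, binds antibody or other targets. The alternative pathway amplifies deposition of C3 through factor B and is stabilised by properdin, and the fragments C3a and C5a act on leukocytes through dedicated receptors. Macrophages and dendritic cells are known to make C1q, C3, factor B and properdin themselves, outside the liver.

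In the GENCODE annotation of GRCm38, the mouse build also called mm10, all 8 genes lie on the minus strand. C1qb (chr4:136880129-136886187), C1qc (chr4:136889804-136893065) and C1qa (chr4:136895917-136898803) stand side by side, with gaps of 3616 and 2851 bases between neighbours. C3 is at chr17:57203970-57228136, and Cfb at chr17:34856374-34862518. Cfb starts 85 bases from C2 and overlaps the coding gene model Gm20547 on the same strand, so counts of Cfb and of that model may be shared by a rule that is not given in the sources used here. C3ar1 is at chr6:122847138-122856161, C5ar1 at chr7:16246743-16259540 with C5ar2 2588 bases away, and Cfp at chrX:20925454-20931555.

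The promoters of C3, the component that rose in 50 of the 63 stimulated groups, and of the neighbours C1qb and C1qc, whose levels moved together across groups, are shown from RefSeq (GRCm38.p6). Each is written 5′ to 3′ on the gene's own minus strand and ends at or before the base ahead of the RefSeq start, with capitals for the matched motif. Of the 8 genes, 6 had an entry in the promoter table, and C1qa and Cfb did not.
C3 (chr17:57228137-57228386): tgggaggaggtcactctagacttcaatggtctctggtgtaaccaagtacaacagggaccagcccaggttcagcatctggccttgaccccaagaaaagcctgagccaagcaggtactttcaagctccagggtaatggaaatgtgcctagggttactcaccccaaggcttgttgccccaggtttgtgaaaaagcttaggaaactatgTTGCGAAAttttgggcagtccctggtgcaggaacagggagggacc
C1qb (chr4:136886201-136886450): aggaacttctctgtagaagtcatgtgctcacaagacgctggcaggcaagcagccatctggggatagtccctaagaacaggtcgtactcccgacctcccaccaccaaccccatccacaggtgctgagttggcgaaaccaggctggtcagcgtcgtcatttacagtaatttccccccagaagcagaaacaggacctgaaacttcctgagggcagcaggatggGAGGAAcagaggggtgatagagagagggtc
C1qc (chr4:136893066-136893164): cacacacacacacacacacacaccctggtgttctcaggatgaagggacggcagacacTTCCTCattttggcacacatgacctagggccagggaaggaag

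In the C3 window the capitals mark a match to a C/EBP motif (TTGC, any 2 bases, AA) at bases -45 to -38 from the start. In the C1qb window they mark the core of the motif of PU.1 (GAGGAA), a factor of myeloid cells, at -30 to -25. In the C1qc window the same core stands on the other strand at -193 to -188. The C1qc window was shortened to 99 bases because the rest lies within an exon of a longer GENCODE transcript, where an NF-kappaB consensus match also falls, at -41 to -32. Searched on both strands of 250 bases, the C/EBP motif was in 9.55% of 27025 RefSeq promoters, the PU.1 core in 23.13% and the NF-kappaB consensus in 3.75%. The interferon-stimulated motif (GAAA, any 2 bases, GAAA; 3.04% of promoters) and the GAS motif (TTC, any 3 bases, GAA; 7.18%) matched none of the 6 windows, and the windows of C3ar1, C5ar1 and Cfp held no match to any of the 5 motifs. A match describes the letters only.

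Each ligand alone was first compared with Ctrl, to ask which complement genes the single stimuli moved. Against Ctrl, C3 and Cfb rose, the C1q chains and the receptors mostly fell or were not called, and properdin, Cfp, was not called. A gene was called changed at an adjusted p under 0.05 (edgeR quasi-likelihood test, Benjamini-Hochberg over the 4720 genes) with a log2 fold change of 1 or more in size. Levels are CPM scaled by library-size factors of the trimmed mean of M values (TMM), so they are relative to each library's scaled total. Levels of different genes are not set against each other.

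Over the 56 tests of 8 genes with 7 ligands, 10 were called higher and 8 lower. PAM had 1 member called higher, where 8.01% of all tested genes were, and 3 lower, where 5.89% were. LPS had 2 higher, against 14.6% of all genes, and 2 lower, against 9.6%. SeV had 3 higher (10.5% of all genes) and 1 lower (5.13%), cGAMP 2 higher (11.7%) and 0 lower (5.91%), and CpGB 2 higher (10.8%) and 1 lower (6.27%). Zymosan had 1 member called lower (1.82% of all genes) and 0 higher (4.43%). HMW had 0 in either direction, where 0.953% of all genes were higher and 0.0212% lower, and 0 of its 8 tests had an unadjusted p under 0.05 or were called by DESeq2. The 7 comparisons share the 3 Ctrl libraries, so they are not independent of each other. Without the first Ctrl library 9 tests were called higher and 5 lower, and the filter on low counts mattered too, with 12 higher and 5 lower when it was left out.

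**Figure D1:**
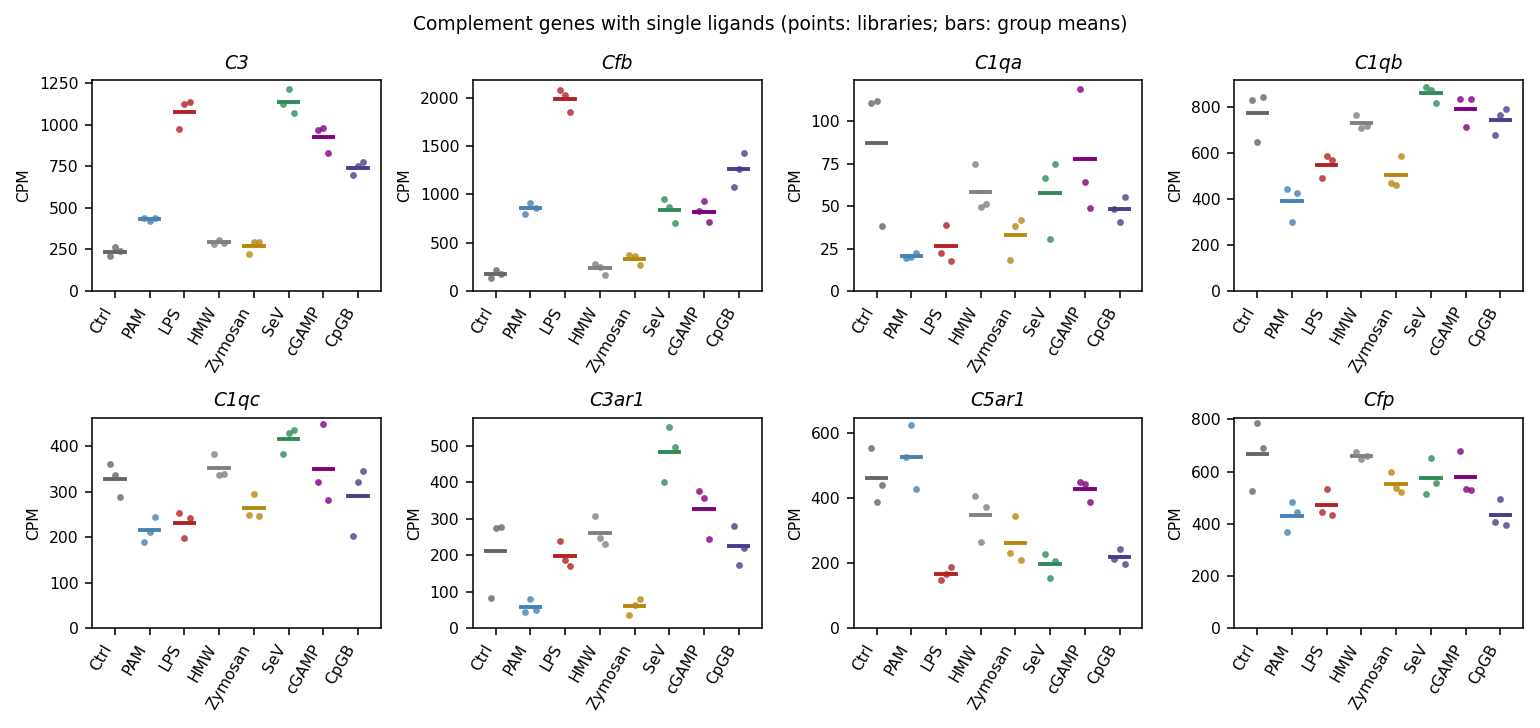
Level of each of the 8 complement genes in CPM (vertical axes, from 0) in Ctrl and with each single ligand (horizontal axes); points are the 3 libraries of a group and bars their mean. C3 and Cfb stand above Ctrl with LPS, SeV, cGAMP and CpGB, C3ar1 is lowest with PAM and Zymosan and highest with SeV, and C5ar1 is lowest with LPS.

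C3, the protein on which all complement pathways converge, was at 208, 262 and 240 CPM in the Ctrl libraries. It was at 1128, 1219 and 1074 CPM with SeV, at 975, 1125 and 1141 CPM with LPS, at 972, 982 and 829 CPM with cGAMP and at 699, 756 and 775 CPM with CpGB. None of these 12 libraries overlapped the Ctrl libraries. C3 rose with SeV by 2.25 on the log2 scale (SE 0.20, adjusted p = 1.76e-21), with LPS by 2.19 (SE 0.20), with cGAMP by 1.96 (SE 0.20) and with CpGB by 1.65 (SE 0.21). PAM gave 440, 422 and 439 CPM, all above Ctrl, with a log2 difference of 0.86 (SE 0.22, adjusted p = 0.00153) that was under the fold limit. Zymosan (221, 294 and 294 CPM) overlapped Ctrl, and HMW (283, 305 and 288 CPM) lay just above it; their adjusted p were 0.705 and 0.787.

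Cfb encodes factor B, the protease precursor of the alternative pathway convertase. Its Ctrl libraries were at 139, 212 and 173 CPM and its LPS libraries at 2084, 2034 and 1848 CPM, a log2 difference of 3.49 (SE 0.20, adjusted p = 6.46e-42). CpGB gave 1077, 1266 and 1430 CPM (2.86, SE 0.20), PAM 800, 915 and 861 CPM (2.29, SE 0.21), SeV 956, 866 and 699 CPM (2.23, SE 0.22) and cGAMP 825, 929 and 712 CPM (2.23, SE 0.22). All 15 libraries of these 5 ligands were above every Ctrl library. With Zymosan, Cfb was at 368, 358 and 271 CPM, also above every Ctrl library, but its log2 fold change of 0.89 (SE 0.25, adjusted p = 0.00903) was under the fold limit. HMW (283, 251 and 167 CPM) overlapped Ctrl (adjusted p = 0.757). PAM and SeV thus gave nearly the same Cfb level, 859 ± 57.3 and 840 ± 130 CPM (SD, n = 3), where their C3 levels were 434 ± 9.79 and 1140 ± 73.1 CPM.

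Cfp encodes properdin, which holds the alternative pathway convertase together. It was at 526, 786 and 691 CPM in Ctrl and at 367, 483 and 444 CPM with PAM, 408, 495 and 397 CPM with CpGB and 447, 532 and 434 CPM with LPS. The libraries with PAM and CpGB were all below Ctrl, while 1 LPS library overlapped it. The adjusted p was under the limit for these 3 ligands (PAM -0.63, SE 0.17; CpGB -0.63, SE 0.17; LPS -0.51, SE 0.17), and none reached the fold limit. With the other 4 ligands the Cfp means lay between 553 and 661 CPM, within the range of the Ctrl libraries.

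The 3 chains of C1q were lower with PAM than in Ctrl in all 3 libraries of each gene. C1qb was at 831, 649 and 845 CPM in Ctrl and at 446, 302 and 428 CPM with PAM, so that it fell by 1.00 on the log2 scale (SE 0.18, adjusted p = 1.12e-06). This call stands at the fold limit and was lost under 9 of 16 alternatives with the direction kept, down to -0.78 without the second PAM library. C1qa was at 111, 112 and 38.4 CPM in Ctrl and at 19.7, 20.1 and 22.2 CPM with PAM, a log2 difference of -1.96 (SE 0.55, adjusted p = 0.00408). C1qc was at 360, 337 and 288 CPM in Ctrl and at 190, 211 and 244 CPM with PAM, and its log2 fold change of -0.59 (SE 0.22, adjusted p = 0.0505) was not called. Fewer cells that carry a gene and less RNA per cell cannot be told apart in these bulk libraries.

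C1qa also fell with LPS (22.3, 38.8 and 17.9 CPM; log2 fold change -1.64, SE 0.52, adjusted p = 0.00914), where 1 LPS library lay at the level of the lowest Ctrl library. These C1qa values rest on few molecules, 21 UMIs in the 3 Ctrl libraries, 11 with PAM and 14 with LPS. The third Ctrl library stood well below its companions, and without it the C1qa fold changes were larger, -2.36 with PAM and -2.00 with LPS. Without the first Ctrl library the LPS value was -1.38 (adjusted p = 0.0815) and was no longer called, and without the second Ctrl library neither was called (PAM -1.66, adjusted p = 0.0688; LPS -1.30, adjusted p = 0.111). The LPS value was also not called without the third LPS library (-1.27, adjusted p = 0.0936) or without the filter on low counts (-1.39, adjusted p = 0.0961).

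The C1qb log2 fold changes with Zymosan and LPS were -0.60 (SE 0.17, adjusted p = 0.0114) and -0.49 (SE 0.17, adjusted p = 0.0171), under the fold limit. With SeV (889, 874 and 821 CPM), cGAMP, CpGB and HMW the C1qb values ran from -0.09 to 0.14, and none passed. C1qc was highest with SeV (382, 429 and 436 CPM), where all 3 libraries were above Ctrl, at a log2 difference of 0.37 (SE 0.20, adjusted p = 0.220) that did not pass. The 8 macrophage markers found of the 9 listed summed to 13510 to 15320 CPM in the Ctrl libraries, 13150 to 13750 with PAM, 10620 to 10910 with LPS, 11570 to 11800 with Zymosan, 11620 to 11830 with cGAMP, 12160 to 12700 with SeV, 12150 to 12700 with CpGB and 12710 to 13950 with HMW. The 8 dendritic cell markers summed to 3253 to 3567 CPM in Ctrl, 4653 to 4846 with PAM, 4740 to 5075 with LPS and 4463 to 5373 with CpGB, and to between 3513 and 4265 with the other 4 ligands. These sums mix markers of unlike size and direction. Lyz2 was at 8690 CPM in Ctrl, Csf1r was highest there (1580 CPM), and Cd14 ran from 333 CPM there up to 2620. In the dendritic cell list Ccl22 ran from 136 CPM in Ctrl up to 1480, and Itgax from 387 down to 183.5 or up to 504.7. The part of either marker list in the C1q values was not tested. Of the macrophage markers Mertk was at 0 in 72 libraries, and none of the others was at 0 in any library.

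C3ar1 encodes the receptor for C3a. Its Ctrl libraries were at 83.1, 274 and 278 CPM, so the first stood apart from the others. PAM gave 45.9, 80.4 and 50.0 CPM and Zymosan 36.8, 63.99 and 79.3 CPM, all below every Ctrl library. SeV gave 401, 552 and 497 CPM, all above every Ctrl library. C3ar1 fell with PAM (log2 fold change -1.86, SE 0.35, adjusted p = 5.57e-06) and with Zymosan (-1.77, SE 0.35, adjusted p = 6.49e-05), and rose with SeV (1.14, SE 0.25, adjusted p = 0.000171). Without the first Ctrl library the SeV value was 0.86 (adjusted p = 0.0146), under the fold limit, and the PAM and Zymosan values were -2.17 and -2.10. The SeV value was also under the limit with library totals alone as the scale (0.96) and in libraries thinned to equal totals (0.87). With cGAMP C3ar1 was at 376, 356 and 246 CPM (adjusted p = 0.140), and LPS, HMW and CpGB libraries overlapped Ctrl.

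C5ar1 encodes the main signalling receptor for C5a. It was at 554, 387 and 442 CPM in Ctrl, and at 149, 166 and 188 CPM with LPS, 229, 153 and 206 CPM with SeV and 213, 245 and 198 CPM with CpGB. All 9 libraries with these ligands were below every Ctrl library. C5ar1 fell with LPS (log2 fold change -1.42, SE 0.29, adjusted p = 1.52e-05), SeV (-1.22, SE 0.29) and CpGB (-1.06, SE 0.28). The CpGB call was lost under 7 of 16 alternatives with the direction kept, among them those without the first (-0.84) or the third (-0.99) Ctrl library and those without the first (-0.91) or the third (-0.92) CpGB library. Zymosan gave 230, 346 and 210 CPM, a log2 difference of -0.81 (SE 0.27, adjusted p = 0.04) under the fold limit. PAM (525, 623 and 428 CPM) and cGAMP (449, 444 and 387 CPM) overlapped Ctrl. The receptors thus went opposite ways with SeV, C3ar1 to its highest level of the 64 groups and C5ar1 below Ctrl.

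Pairs and triplets were then compared with Ctrl. Over the 21 pairs, 39 of 168 tests were called higher and 24 lower, beside 13.7% and 8.44% of the tests of all genes. Over the 35 triplets, 63 of 280 were called higher and 48 lower, beside 15.7% and 10.2%. With library totals alone as the scale the pairs gave 37 higher and 41 lower calls and the triplets 58 and 84, and without the filter on low counts 41 and 12, and 69 and 24. All of the members' higher calls in pairs and triplets came from C3 and Cfb, and C3ar1 with SeV alone was the 1 higher call of another member among the 63 stimulated groups.

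**Figure D2:**
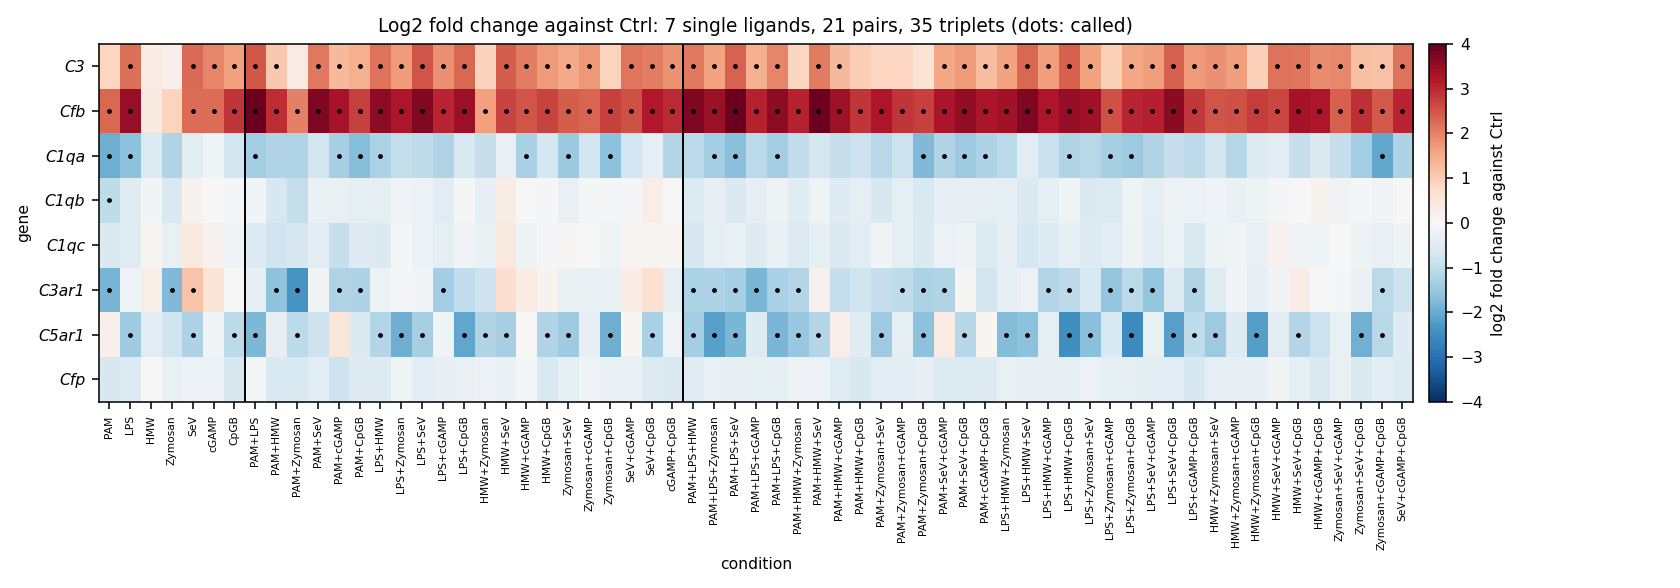
Log2 fold change against Ctrl (colour scale ending at a change of 4 in either direction, red higher and blue lower) of the 8 complement genes (vertical axis) in the 63 stimulated groups (horizontal axis), ordered as 7 single ligands, 21 pairs and 35 triplets with lines between; dots mark called values. Cfb carries a dot in 61 groups and C3 in 50, all higher, while the dots of C1qa (20), C5ar1 (36) and all but 1 of the 24 of C3ar1 mark lower values.

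Cfb was called higher in 61 of the 63 groups, the exceptions being HMW and Zymosan alone. Its lowest combination was HMW + Zymosan (451, 578 and 602 CPM), which was called although neither ligand alone was. Zymosan alone stood near the fold limit. Its log2 fold change was called without the filter on low counts (1.07), without the second Ctrl library (1.07), without the third library of each group (1.05) and without the third Zymosan library (1.08). It was highest with PAM + LPS + SeV (2943, 2218 and 2803 CPM, mean 2654 ± 385), 15.2 times the Ctrl mean, and 9 other groups overlapped that group, among them PAM + LPS (2342, 2661 and 2914 CPM). The median log2 fold change of Cfb was 2.23 over single ligands, 2.95 over pairs and 3.22 over triplets.

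C3 was called higher in 50 of the 63 groups (43 to 59 under the other settings). It peaked with LPS + SeV (1298, 1372 and 1421 CPM), 5.76 times the Ctrl mean, and 3 other groups overlapped that range. Its median log2 fold change was 1.65 over single ligands, 1.81 over pairs and 1.67 over triplets, so that triplets were not above pairs. Of the 22 groups with SeV 21 were called, as were 21 of the 22 with LPS, but 12 of the 22 with Zymosan. The 1 uncalled SeV group was PAM + Zymosan + SeV, at 450, 362 and 477 CPM, where PAM + SeV without Zymosan gave 884, 1150 and 1058 CPM. The lowest pair was PAM + Zymosan (232, 324 and 320 CPM), which overlapped Ctrl.

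C1qa was called lower in 20 groups (2 single ligands, 7 pairs and 11 triplets), while C1qb was called in PAM alone and C1qc in none. C1qc had an unadjusted p under 0.05 in 21 groups, DESeq2 called 1 of the 63, and scaling by library totals alone 7. The C1qa calls turned on the settings: 2 were left without the filter on low counts, 1 without the first library of each group and 0 without the second, while scaling by library totals alone gave 46. In no group was a C1q chain called higher. C1qb reached its lowest means with PAM (392 ± 78.7 CPM) and PAM + Zymosan (405 ± 58.0) and its highest with HMW + SeV (940 ± 132), a ratio of 2.40 between extremes. The extremes of C1qc were PAM + cGAMP (170 ± 24.5 CPM) and HMW + SeV (421 ± 62.5), a ratio of 2.47. In both genes the libraries overlapped at all 63 steps between groups neighbouring in rank, so neighbours in the order do not differ beyond their spread. For C1qa they overlapped at 62 of the 63 steps, and its top group Ctrl overlapped 53 other groups. Cfp had its highest mean in Ctrl and its lowest with PAM + cGAMP (362, 410 and 355 CPM), with a range of 1.78 times. It had no called group by edgeR and 1 by DESeq2, although 41 of the 63 had an unadjusted p under 0.05, and scaling by library totals alone gave 6.

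Across the 64 group means, C1qb and C1qc rose and fell together (Pearson's r 0.72, Spearman's rho 0.75), and C1qb followed C3ar1 as closely (r 0.73, rho 0.69). C1qc and C3ar1 had an r of 0.68, C1qa and C1qb of 0.47, and C3 and Cfb of 0.65. The receptors C3ar1 and C5ar1 showed no such relation (r -0.05). These values describe means on the log2 scale that come from the same libraries and share their depth, and they carry no p.

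**Figure D3:**
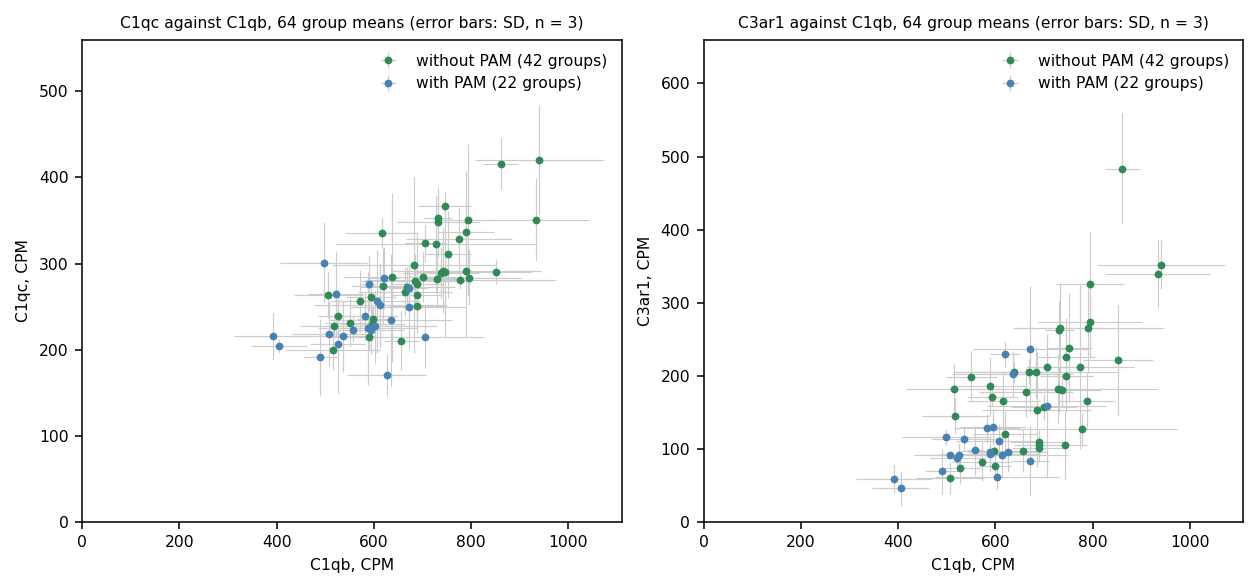
Group means in CPM of C1qc (left) and C3ar1 (right, vertical axes) against C1qb (horizontal axes) for the 64 groups; points are blue for the 22 groups with PAM and green for the 42 without, and lines are the SD of 3 libraries. Groups with PAM lie toward the lower left in both panels, with C1qb at 392 to 705 CPM, and the highest C1qb means, up to 940 CPM, are groups without PAM.

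C3ar1 was called lower in 23 groups, of which 14 were among the 22 with PAM, 12 among the 22 with LPS and 3 among the 22 with SeV (groups with several of these count more than once). Without the filter on low counts 13 groups were called lower, without the second library of each group 14 and without the third 10. Its lowest group was PAM + Zymosan (73.7, 29.5 and 34.96 CPM), and its range of group means was 10.5 times. SeV alone was the highest group, and no other group overlapped it. HMW + SeV (390, 337 and 328 CPM) and SeV + CpGB (344, 384 and 291 CPM) came next.

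C5ar1 was called lower in 36 groups, and in 23 without the first library of each. Only 2 of these were among the 22 groups with cGAMP, against 17 of 22 with LPS, 16 of 22 with Zymosan and 16 of 22 with CpGB. The lowest group was LPS + Zymosan + CpGB (33.1, 83.0 and 99.5 CPM) and the highest PAM + cGAMP (724, 636 and 554 CPM), a ratio of 8.87. The 3 groups of highest C5ar1 all held PAM with cGAMP, followed by PAM alone (525 ± 97.8), but 6 other groups overlapped the highest and libraries overlapped at all 63 steps between neighbours in rank.

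The effect of adding a ligand was averaged over the 22 sets of 0 to 2 other ligands to which it could be added, and called at an adjusted p under 0.05 with a mean log2 difference of at least 0.5. Over 56 tests, 7 were called higher and 7 lower. All 14 calls fell on C3, Cfb, C3ar1 and C5ar1. Scaled by library totals alone, 4 were called higher and 8 lower, and the 4 and 6 called without the Ctrl background are from a setting chosen after seeing the data.

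**Figure D4:**
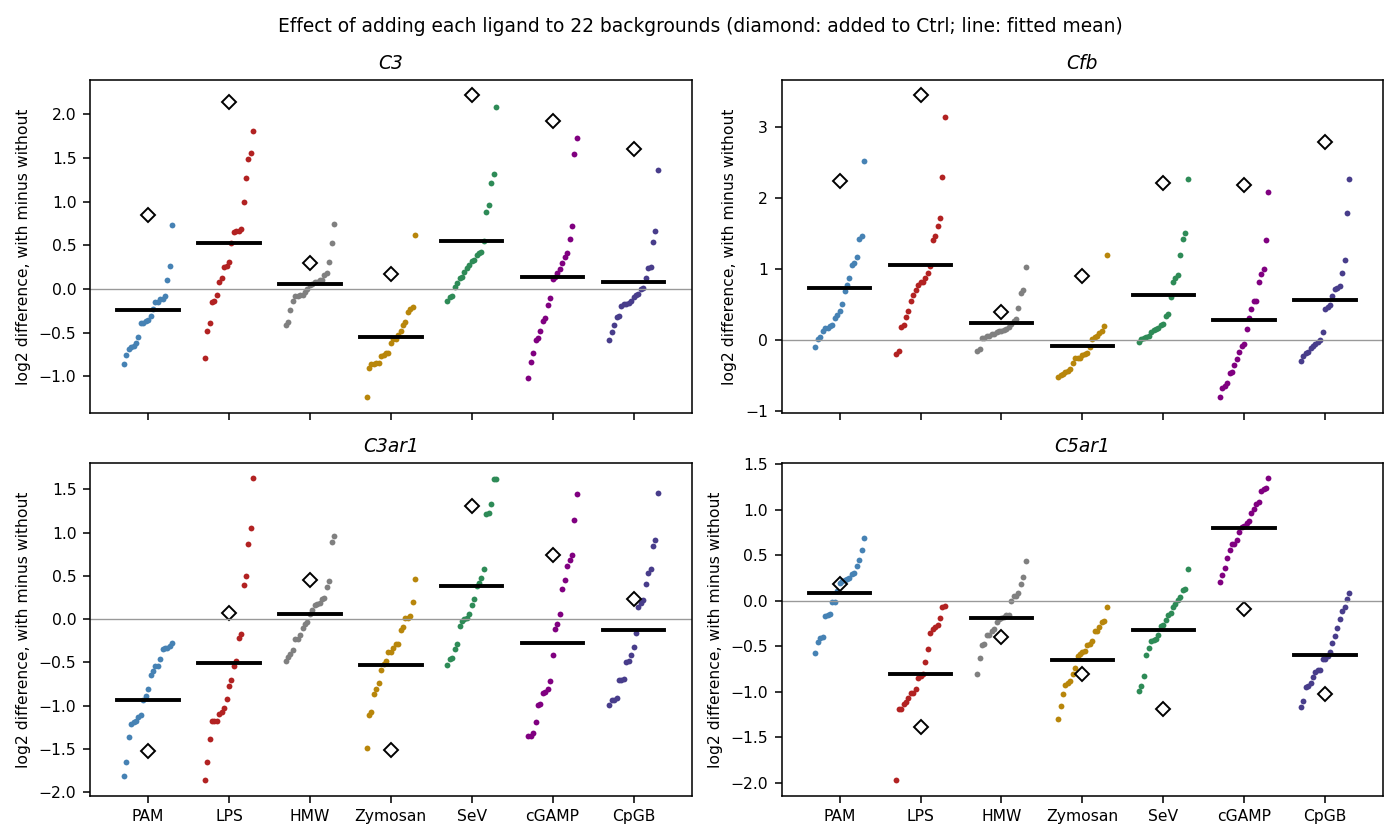
Log2 difference in C3, Cfb, C3ar1 and C5ar1 (vertical axes) between groups with and without each ligand (horizontal axes); each point is 1 of 22 backgrounds, diamonds are additions to Ctrl and black lines the mean fitted over backgrounds. cGAMP stands above 0 for C5ar1 in 21 of 22 backgrounds, while LPS and Zymosan stand below 0 for it in all 22, and PAM is below 0 for C3ar1 in all 22.

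Cfb rose on average when LPS was added (1.06, SE 0.03; higher in 20 of 22 backgrounds), where 14.9% of all genes were called higher and 11% lower. It rose with PAM by 0.72 (21 of 22 backgrounds; 6.53% of all genes higher and 5.89% lower), with SeV by 0.63 (21 of 22; 7.9% and 2.58%) and with CpGB by 0.56 (13 of 22; 6.12% and 5.06%). The additions to Ctrl were the largest for LPS and CpGB, 3.44 and 2.78, against medians over backgrounds of 0.81 and 0.45. C3 rose with SeV (0.55, SE 0.03; 19 of 22) and with LPS (0.53, SE 0.03; 16 of 22). Both were under the limit of 0.5 with library totals alone as the scale (0.48 and 0.40) and without the Ctrl background (0.47 and 0.45), as was the CpGB effect on Cfb (0.49 and 0.45). It fell with Zymosan (-0.55, SE 0.03; lower in 20 of 22 backgrounds, adjusted p = 3.78e-36), where 3.81% of all genes were called lower and 8.58% higher. The exceptions for Zymosan were additions to Ctrl and to HMW, and the largest fall was on PAM + SeV (-1.24).

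C3ar1 fell with PAM in 22 of 22 backgrounds, by a mean of 0.94 on the log2 scale (SE 0.06, adjusted p = 8.79e-33), and with Zymosan (-0.53, SE 0.06; 17 of 22) and LPS (-0.51, SE 0.07; 16 of 22). Without the second library of each group the Zymosan value was -0.44 and the LPS value -0.50, both under the limit, and without the Ctrl background the Zymosan value was -0.47. LPS differed in sign between backgrounds, from -1.87 on cGAMP to 1.63 on Zymosan. With SeV the mean C3ar1 difference was 0.38 (SE 0.06, adjusted p = 5.1e-08), under the limit of 0.5.

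C5ar1 rose when cGAMP was added by a mean of 0.80 (SE 0.06, adjusted p = 5.01e-31), where 14.3% of all genes were called higher and 10.3% lower. The 1 background in which it did not was Ctrl (-0.10), and the rise was largest on LPS + Zymosan (1.34). C5ar1 fell with LPS (-0.80, SE 0.06; lower in 22 of 22), with Zymosan (-0.65, SE 0.06; 22 of 22) and with CpGB (-0.60, SE 0.06; 20 of 22). HMW, for which 0.297% of all genes were called higher and 0.0847% lower, gave no called member in edgeR or DESeq2, with 3 of 8 at an unadjusted p under 0.05. The C1q chains and Cfp had no called mean effect by either tool, with 13 of 28 at an unadjusted p under 0.05. For PAM the adjusted p of C1qb (-0.34, SE 0.03), C1qc (-0.40, SE 0.04; lower in 22 of 22 backgrounds) and C1qa (-0.36, SE 0.11) passed, and the difference was under 0.5. The adjusted p also passed, at smaller differences, for C1qb with Zymosan (-0.17), LPS (-0.14) and CpGB (0.12), for C1qc with LPS (-0.24) and SeV (0.14) and for Cfp with CpGB (-0.15) and PAM (-0.13), so the CpGB value of C1qb and the SeV value of C1qc were positive. Scaled by library totals alone the C1qc value with PAM was -0.53.

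Each pair was also set against both of its ligands. A pair was called above them if it exceeded each by 1 or more on the log2 scale with the larger p passing after adjustment. Of 168 tests 1 was above and 1 below, where 0.353% and 0.0504% of the tests of all genes were. Cfb with PAM + SeV was at 2210, 2492 and 2271 CPM, against 859 ± 57.3 CPM with PAM and 840 ± 130 CPM with SeV. It exceeded PAM by 1.43 (SE 0.13) and SeV by 1.50 (SE 0.14; adjusted p of the larger = 1.06e-18), and no library of the pair overlapped either ligand. C3ar1 with LPS + cGAMP was at 52.5, 104 and 90.3 CPM, against 199 ± 35.3 with LPS and 326 ± 70.4 with cGAMP. Its log2 difference was -1.19 (SE 0.30) from LPS and -1.91 (SE 0.28) from cGAMP (adjusted p of the larger = 0.0109). It was not called without the first or without the third library of each group, which leave 0 tests below. No triplet of any of the 8 genes was called above or below all 3 of its pairs (0 of 280), where 0.0115% and 0% of the tests of all genes were. DESeq2 called 0 of them too, and 4 had an unadjusted p under 0.05 in edgeR. Without a fold limit, 1 triplet test passed at an adjusted p under 0.05, of C3.

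**Figure D5:**
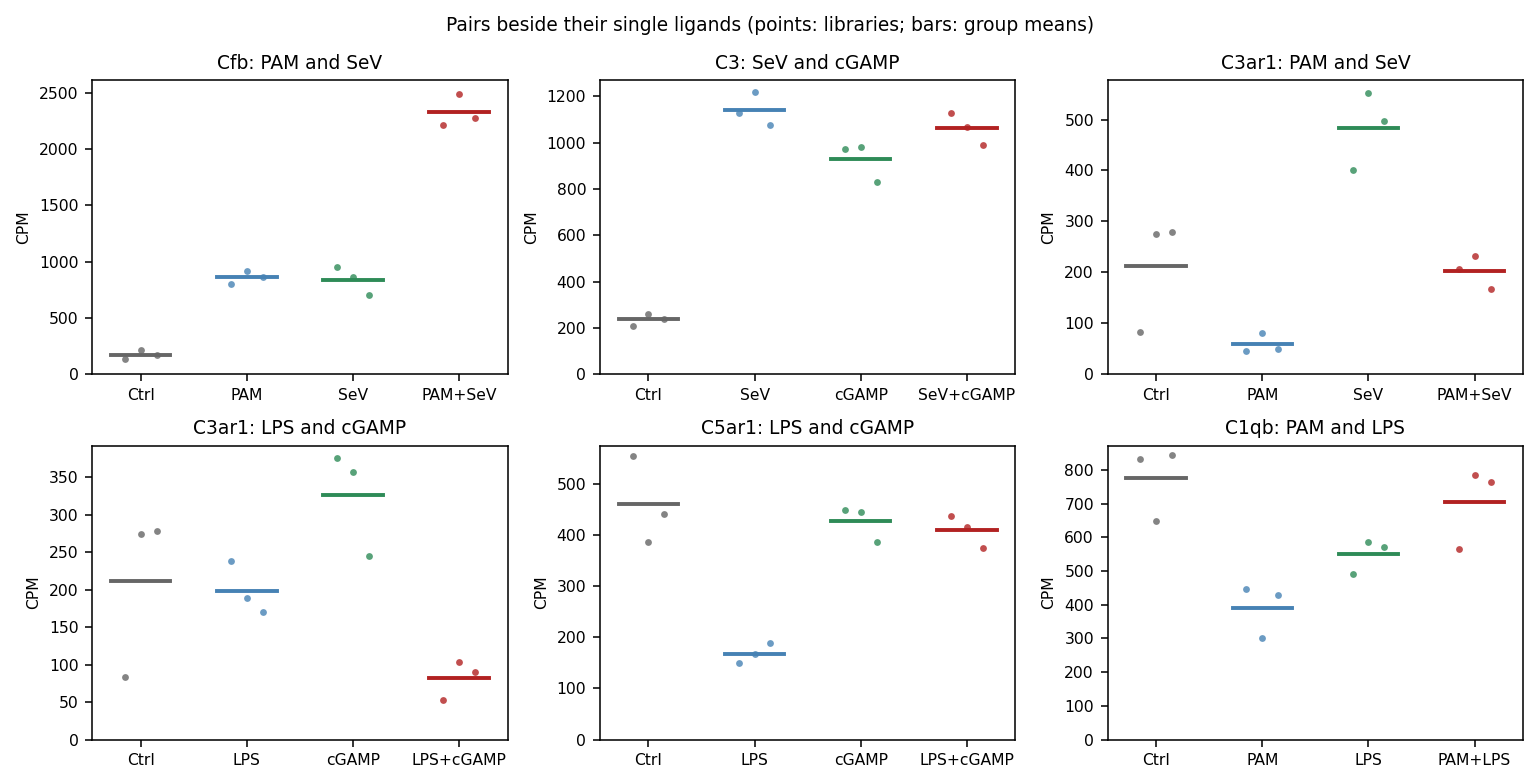
Level in CPM (vertical axes, from 0) of Cfb, C3, C3ar1, C5ar1 and C1qb in Ctrl, with each ligand of a pair and with the pair (horizontal axes); points are libraries and bars means. Cfb with PAM + SeV lies above both ligands, C3ar1 with LPS + cGAMP below both, C5ar1 with LPS + cGAMP at the level of cGAMP alone and C1qb with PAM + LPS above PAM alone, overlapping LPS alone and Ctrl.

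The pair interaction is the pair minus both ligands plus Ctrl on the log2 scale, and 0 means that log2 effects add up. Of 168 interactions 12 were called positive and 25 negative at an adjusted p under 0.05, beside 1.08% and 3.5% of the tests of all genes. The negative calls were 12 of Cfb, 10 of C3 and 3 of C3ar1, and the positive ones 3 each of C3ar1, C5ar1 and Cfp, 2 of C1qb and 1 of C1qa. C1qc had none by edgeR or DESeq2, with 1 of 21 at an unadjusted p under 0.05. The positive calls numbered 8, 3 and 4 without replicate 1, 2 and 3 of each group in turn and 6 in libraries thinned to equal totals, where the negative ones numbered 20, 21, 23 and 17. Of the 37 calls, 22 to 37 were kept under the 9 other settings.

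For C3 and Cfb the negative interactions were mostly pairs that did not exceed the stronger ligand by much. C3 with SeV + cGAMP was at 1127, 1069 and 988 CPM, overlapping SeV alone (1140 ± 73.1) and above every library of cGAMP alone (927 ± 85.7), an interaction of -2.06 (SE 0.25, adjusted p = 1.83e-12). Cfb with LPS + cGAMP, at 1532, 1370 and 1453 CPM, was below LPS alone (1989 ± 124) by 0.45 on the log2 scale (SE 0.13, adjusted p = 0.0147) and above cGAMP alone (822 ± 109), with an interaction of -2.68 (SE 0.25). The largest was that of Cfb with LPS + CpGB, -2.88 (SE 0.25, adjusted p = 2.32e-22). These 3 were called under all 9 other settings.

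The receptors differed with the same pair. C3ar1 with LPS + cGAMP had an interaction of -1.74 (SE 0.40, adjusted p = 0.000548), and C5ar1 one of 1.35 (SE 0.37, adjusted p = 0.00506). Both were called under 8 of 9 other settings, the exception being without the first library of each group. C5ar1 was at 438, 415 and 375 CPM with LPS + cGAMP, close to cGAMP alone (427 ± 34.8) and above every library of LPS alone (168 ± 19.6). The same held with SeV + cGAMP (456, 655 and 328 CPM; interaction 1.41, SE 0.37) against SeV alone (196 ± 39.0). C3ar1 with PAM + SeV was at 207, 231 and 168 CPM, between PAM alone (58.8 ± 18.9) and SeV alone (483 ± 76.2), differing from each (1.74, SE 0.33, and -1.27, SE 0.23).

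Positive interactions were also called for C1qb, Cfp and C3ar1 with PAM + LPS. For C1qb and Cfp the mean of the pair lay nearer to Ctrl than that of either ligand, and for C3ar1 it lay between those of the ligands. C1qb was at 565, 785 and 766 CPM with the pair, against 392 ± 78.7 with PAM, 551 ± 51.8 with LPS and 775 ± 110 in Ctrl (interaction 1.38, SE 0.23, adjusted p = 7.42e-07). Cfp was at 492, 807 and 635 CPM against 432 ± 58.7, 471 ± 53.3 and 668 ± 131 (1.11, SE 0.23, adjusted p = 7.58e-05). C3ar1 was at 45.6, 230 and 199 CPM with the pair, a mean of 158 against 58.8 with PAM, 199 with LPS and 212 in Ctrl (1.71, SE 0.43, adjusted p = 0.00239), and the first library of this pair was the lowest of its group for all 3 genes. The C1qa interaction with the pair, 2.21 (SE 0.77, adjusted p = 0.0487), was called under 3 of 8 other settings. It rests on 18 UMIs in the pair, 11 with PAM, 14 with LPS and 21 in Ctrl. That of C3ar1 was called under 6 of 9, the exceptions being thinned libraries and those without the second or the third library of each group.

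A wider list of 45 other complement genes, including early components, regulators and receptors, was read in the same way. Of these 42 had a row and 8 were tested, namely Cr1l, Clu, C5ar2, Itgam, Itgax, Itgb2, Cd93 and Calr. Among the 8, 1 fell with PAM, 2 with LPS and 1 with CpGB, where 5.89%, 9.6% and 6.27% of all tested genes were called lower. None rose with any single ligand, where 0.953% (HMW) to 14.6% (LPS) of all genes did, so with 8 genes these counts are near the background. Their median log2 fold change was -0.26 with PAM, -0.48 with LPS, -0.52 with SeV, -0.50 with cGAMP and -0.45 with CpGB, and -0.07 with HMW and -0.01 with Zymosan. The median of the 8 members was -0.61 with PAM, -0.49 with LPS, 0.25 with SeV, 0.08 with cGAMP, -0.07 with CpGB, 0.04 with HMW and -0.45 with Zymosan, and that of all tested genes ran from -0.09 (cGAMP) to 0.03 (HMW). Cd93, a surface protein once taken for a C1q receptor, was at 124 ± 42.6 CPM in Ctrl and at 14.3 ± 9.68 with PAM (log2 fold change -2.99, adjusted p = 1.83e-06), 27.5 ± 5.49 with LPS (-2.13) and 29.8 ± 23.0 with CpGB (-1.98), and it was called lower in 53 of 63 groups. Itgam, the alpha chain of complement receptor 3, fell with LPS by 1.00 on the log2 scale (adjusted p = 0.000492). The classical component C2, the neighbour of Cfb, had 103 UMIs over all libraries and was not tested, and C5ar2 had no called single-ligand change (-1.41 with SeV, adjusted p = 0.0983).

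The genes whose group means were most like each member were found over 64 groups among 4500 genes with a Pearson correlation of log2 CPM. For Cfb they were Psme2 (r 0.94), Ms4a6d (0.93) and Ch25h (0.93). For C3 they were Tbc1d13 (0.88), Ms4a4c (0.87) and Ctsc (0.87), and for C5ar1 Myof (0.86), Efhd2 (0.76) and Lrrc8d (0.75). C3ar1 was most like Atp6v1b2 (0.80), Aif1 (0.80) and Lmo2 (0.79), C1qb like C3ar1 (0.73) and, among others, C1qc (0.72), and C1qc like Trf (0.74), Atp6v1b2 (0.73) and C1qb (0.72). Cfp was most like Alox5ap (0.72), and C1qa, the gene of fewest counts, reached no more than 0.56, with Ccr2.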

How the data were processed

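RNA from 192 libraries of mouse bone marrow-derived dendritic cells was read as deposited whole-number UMI counts per gene, without normalization. Per the submitters' processing notes the authors used BWA 0.7.15 and the build mm10. The rules for collapsing UMIs, for reads that match several genes and for overlapping genes, and the annotation, are not given in the sources used here. All 192 columns were matched to samples by title, and no 2 libraries held identical values.

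The analysis used edgeR 4.0.16 under R 4.3.3. The filter filterByExpr kept 4720 of 23481 genes and 95.72% of all UMIs. Library sizes were scaled by TMM, and 1 quasi-likelihood model with a coefficient per group was fitted to all libraries (128 residual degrees of freedom, biological coefficient of variation 10.25%). P-values were adjusted by Benjamini-Hochberg over all tested genes within each contrast. SE are the log2 fold change over the root of its F. Log2 CPM used a prior count of 2. CPM of cell type markers used each library's total of all UMIs, before the filter, scaled by the same TMM factors. Genes most like a member were sought among tested genes averaging 20 CPM or more, up to 3 per member, of which 1 is not reported here. Scripts were tested on simulated data.

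The members and all lists of genes, markers and motifs were chosen with earlier results of these data known, from general knowledge of the pathway and not from how genes moved. The text names all 8 members and, of the other complement genes, those that were tested and C2, the untested neighbour of Cfb. Adgre1 and Ly6g, from the marker lists, were not analysed here. Alternatives were other library scalings, no filter, thinning to equal totals, DESeq2 1.42.0, a replicate block, left-out replicates and fits without the fold limit. Since no shared deviation of same-numbered libraries was seen across groups, the numbers were not used as pairs in the main fit.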

Additional observations from a re-analysis of the deposited data

Results flagged for a closer look

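In 6 cases a ligand moved a complement gene one way alone and the other way when added to a second ligand, with both differences passing at an adjusted p under 0.05 and the interaction testing the difference between them (edgeR quasi-likelihood test). For Cfb, cGAMP gave a log2 difference of 2.23 alone (adjusted p = 2.38e-18) and -0.45 on top of LPS (adjusted p = 0.0147), an interaction of -2.68 (SE 0.25, adjusted p = 6.39e-19). For C3, PAM gave 0.86 alone and -0.67 on top of cGAMP (SE 0.16, adjusted p = 0.000589), an interaction of -1.53 (SE 0.27, adjusted p = 2e-05). For C1qb, LPS gave -0.49 alone, 0.89 on top of PAM (SE 0.16, adjusted p = 8.47e-07; interaction 1.38, SE 0.23) and 0.42 on top of Zymosan (SE 0.16, adjusted p = 0.0302; interaction 0.91, SE 0.23, adjusted p = 0.00598). For Cfp the pair PAM and LPS counts as 2 of the 6 cases: PAM gave -0.63 alone and 0.48 on top of LPS (adjusted p = 0.0419), and LPS -0.51 alone and 0.60 on top of PAM (adjusted p = 0.000727), with 1 interaction of 1.11 (SE 0.23). The effect alone is measured from the 3 Ctrl libraries, which also enter the interaction and had the lowest mean total of the 64 groups, 73431 UMIs.

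Across the 9 other settings the interactions of Cfb with LPS + cGAMP and of Cfp with PAM + LPS were called each time, those of C3 with PAM + cGAMP and of C1qb with PAM + LPS in 8, and that of C1qb with LPS + Zymosan in 6.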

How the results depend on the processing

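No value of a member with a single or an added ligand that was called reversed its direction under any setting tried. The values of C3 with LPS, SeV, cGAMP and CpGB, of Cfb with PAM, LPS, SeV, cGAMP and CpGB, of C3ar1 with PAM and Zymosan and of C5ar1 with LPS and SeV stayed called under every alternative that gave them a test. C1qa was not tested in thinned libraries. Models of each ligand with Ctrl alone gave 5 lower calls because C1qa with PAM and LPS and C3ar1 with Zymosan were not tested there, and the 49 values tested kept their call. Other counts moved as follows, and the cause was not tested. Against Ctrl, library totals alone as the scale gave 41 lower calls in pairs and 84 in triplets, and 4 higher calls of added ligands. With no filter on low counts there were 5 lower calls with single ligands, 12 in pairs and 24 in triplets, 2 pairs above both ligands and 6 positive interactions. Thinned libraries gave 6 positive interactions. With no fold limit 5 pairs stood above both ligands, and added ligands had 13 higher and 20 lower calls. Without the Ctrl background, a setting chosen after seeing the data, added ligands had 4 higher calls. Leaving out each replicate in turn, over all groups, gave 4 to 6 lower calls with single ligands (5 to 6 when only a Ctrl library was left out), 11 to 25 in pairs and 30 to 39 in triplets, 1 to 2 pairs above and 0 to 1 below both ligands, and 3 to 8 positive interactions. Scaling also moved the middle of the distribution over all tested genes, on the log2 scale and as a median over 7 ligands, by -0.12 (DESeq2 size factors) and -0.19 (library totals alone). C3 with LPS added, at 0.53, was lost under 6 of 10 alternatives, all between 0.40 and 0.50. No pairing of libraries by replicate number was seen: in 0 of 63 conditions did all 3 same-number correlations of deviations with Ctrl exceed 0.1. Over all groups the mean correlation was 0.00828 for the same number and -0.00413 for other numbers. Counting noise lowers such correlations, so a weak pairing could be missed. With a replicate block, single ligands had 10 higher and 7 lower calls, pairs 39 and 24, triplets 63 and 48 and interactions 14 and 25. Of the calls of single and added ligands the block changed that of C1qb with PAM, at -0.998. Depth limits the genes of fewest molecules: over the 3 libraries of a group, the lowest number of UMIs was 7 for C1qa, 18 for C3ar1 and 29 for C5ar1.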
